A study of Homo sapiens with 15 samples.

Results

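The transcripts described here are those of 35 genes of glycolysis and of the cellular response to low oxygen. The genes were chosen by name, with earlier results of these data known. They comprise 2 glucose transporters, 17 glycolytic enzymes, 4 kinases that set the rate or the exit of the pathway, 2 subunits of the hypoxia-inducible factors, and further genes known to be induced by hypoxia. Of the 35 genes, 34 were measured among the 11963 genes on the arrays, CA9 having no probe set in the annotation used. The cells were MCF-10A, an immortalized but non-tumorigenic line of human mammary epithelium, in which the level of p63 was altered. p63 is a transcription factor related to p53 that basal epithelial cells depend on, and it is made as TA isoforms, which carry an N-terminal transactivation domain, and as ΔN isoforms, which lack it.

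The knockdown arm had 3 groups of 2 arrays: cells given an empty short hairpin RNA (shRNA) vector, cells given shDBD, a hairpin aimed at the DNA-binding domain and so at every p63 isoform, and cells given shTA, a hairpin aimed at the TA isoforms. The overexpression arm had 3 groups of 3 arrays: cells given an empty vector, ΔNp63α or TAp63γ. RNA was taken 48 h after infection with a retrovirus or an adenovirus, and which of these served which arm is not given in the sources used here. The labels give standard growth conditions for all groups and name no exposure to low oxygen. They call the replicates biological without saying whether the infections were separate, and the p-values cover no more than the spread among these arrays.

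Glycolysis turns glucose into pyruvate and yields ATP without oxygen. Most of its enzymes, with the glucose transporter SLC2A1 and genes for blood vessel growth, pH control and collagen modification, are targets of the hypoxia-inducible factors (HIFs). These are dimers of an oxygen-regulated α subunit, HIF1A or EPAS1, and a stable β subunit. In the presence of oxygen prolyl hydroxylases mark the α subunit for destruction, so HIF activity is set mainly at the level of the protein and not of its transcript.

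All values are on the log2 scale, 1 unit being a 2-fold difference. A level is the log2 value of a gene's probe set on an array, and a change is the difference between group means ± its standard error, from limma with 2 arrays per group in the knockdown arm and 3 in the overexpression arm. "Rose" and "fell" are used only for changes with a Benjamini-Hochberg adjusted p under 0.05 over all 11963 genes. With so few arrays, groups often do not overlap. Of all 11963 genes, 3807 lay wholly above and 3579 wholly below the vector arrays with shDBD. The counts were 2894 and 3172 with shTA, 1951 and 2420 with ΔNp63α, and 2822 and 3147 with TAp63γ. Lack of overlap alone is thus a weak sign of a change. Replicate arrays correlated at 0.9976 to 0.998 in the knockdown arm and 0.9925 to 0.9979 in the overexpression arm. All 9 measured epithelial markers of 12 listed lay above the 20th percentile on every array. Their mean level was 12.34 to 12.38 with the shRNA vector, 11.81 to 11.82 with shDBD and 12.26 to 12.34 with shTA, and 11.73 to 12.03, 11.80 to 12.09 and 12.22 to 12.43 with the overexpression vector, ΔNp63α and TAp63γ. The corresponding immune list, with 6 of 8 genes measured, had means of 5.86 to 5.97 on the knockdown arrays and 5.22 to 5.42 on those of the overexpression arm. The fibroblast list lay between 5.70 and 6.13 over all arrays, the endothelial list between 5.27 and 6.27, and the erythroid and adipocyte list between 5.48 and 6.2. The 20th percentile was also exceeded on every array by 4 of 6 measured immune markers and 4 of 6 fibroblast markers. The same held for 3 of 5 endothelial and 2 of 4 erythroid and adipocyte markers. The epithelial list thus stood apart in mean level, while this threshold separated the lists only in part. The 3′ minus 5′ difference of the actin control, a measure of RNA integrity, was −0.0938 to −0.0799 with the shRNA vector, 0.0483 to 0.0854 with shDBD and 0.00283 to 0.201 with shTA. It was 0.124 to 0.235 with the overexpression vector, 0.123 to 0.231 with ΔNp63α and 0.00542 to 0.136 with TAp63γ. The part of these differences in the results was not tested.

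HIF dimers bind DNA at a short core, most often ACGTG, and the promoters of several members carry it. The 250 bases before each RefSeq transcript start (GRCh38.p14) were searched for ACGTG on both strands, a CACGTG palindrome counting once on each. A window was found for 32 of the 35 members, and 18 of these 32 genes (56.2%) had at least 1 match, against 5935 of 27305 genes of the promoter table (21.7%). By window, the share was 21 of 55 for the members (38.2%) and 6501 of 35116 for all promoters (18.5%). Matches were found for 11 of 18 transporters and enzymes, 3 of the 4 kinases, 4 of 8 other hypoxia genes, and 0 of 2 HIF subunits. The related core GCGTG was in 30.9% of the member windows and 32.2% of all windows. In the windows of protein-coding genes alone, the shares were 20.2% for ACGTG and 38.3% for GCGTG. The members were listed partly as known hypoxia genes, so their share of ACGTG is no independent result. Stretches of 4 promoters are shown because they hold the matches of 2 genes that moved with p63 in both arms, BHLHE40 and ANGPTL4, and of 2 enzymes, PGK1 and LDHA, that moved mainly with TAp63γ; they were picked with the values known. Capitals mark ACGTG or its reverse complement CACGT, and each is read 5′ to 3′ on the plus strand, which is the strand of the gene.
BHLHE40, chr3:4979187-4979307: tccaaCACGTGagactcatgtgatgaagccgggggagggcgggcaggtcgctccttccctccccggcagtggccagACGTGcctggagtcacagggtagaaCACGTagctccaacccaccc
ANGPTL4, chr19:8363906-8363940: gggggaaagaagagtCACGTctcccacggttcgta
PGK1, chrX:78104031-78104084: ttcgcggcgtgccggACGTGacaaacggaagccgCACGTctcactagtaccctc
LDHA, chr11:18394363-18394509: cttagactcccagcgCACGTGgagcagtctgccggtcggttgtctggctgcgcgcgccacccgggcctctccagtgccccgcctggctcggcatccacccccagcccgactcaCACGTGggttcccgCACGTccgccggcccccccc
The stretch of BHLHE40 holds 4 matches, that of ANGPTL4 1, that of PGK1 2 and that of LDHA 5, the palindromes counted on both strands. The windows of SLC2A1 and CA12, which moved with p63 in both arms, held no ACGTG. A match is a string of letters and not a measured binding site.

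With shDBD, which is aimed at all p63 isoforms, 10 of the 34 members fell and 3 rose, with a median change of −0.10, while 10.2% of all genes fell, 11.1% rose and the median was 0. The falls were in the main glucose transporter, in 3 enzymes, in the kinase PFKFB3 and in 5 of the 9 other hypoxia genes. With shTA, 1 member fell, ANGPTL4, and 0 rose (median −0.02), against 0.853% and 1.44% of all genes. With ΔNp63α, 12 members rose and 4 fell (median 0.14), against 12.3% and 16.6% of all genes and a median of 0. With TAp63γ, 21 members rose and 6 fell (median 0.36), against 20.5% and 22.8% of all genes and a median of −0.02. In RNA of whole cultures, a smaller share of expressing cells and less RNA per cell cannot be told apart.

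**Figure D1:**
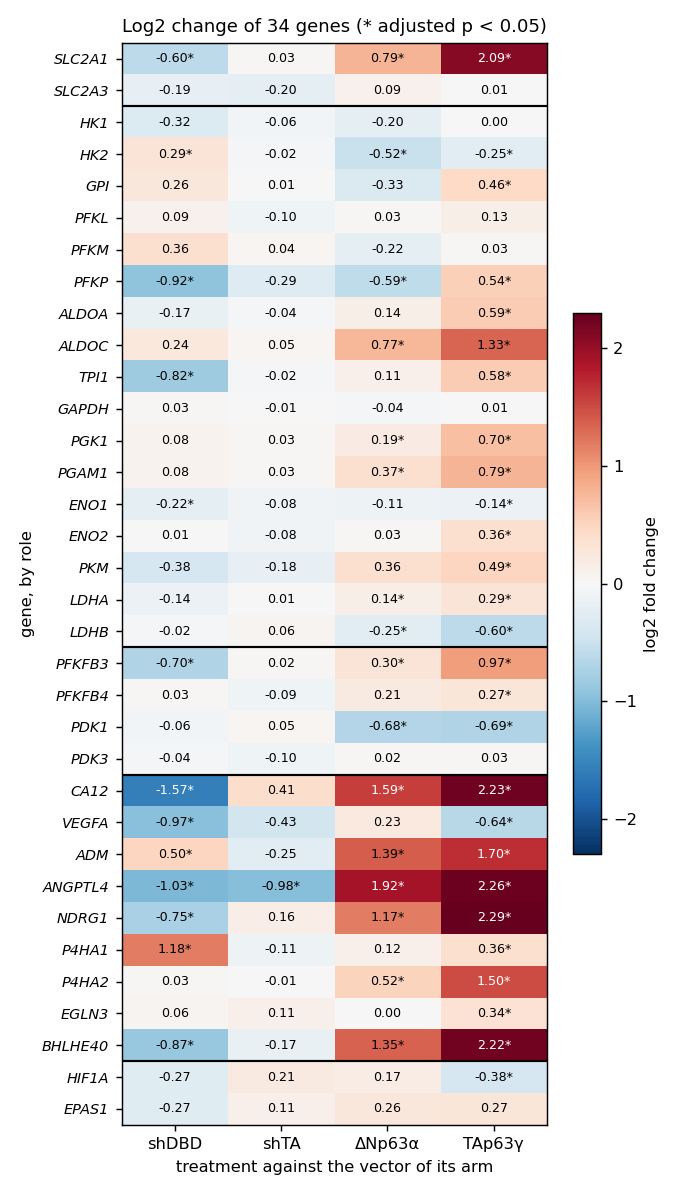
Log2 change of each of the 34 measured genes (rows, in blocks of transporters, enzymes, kinases, other hypoxia genes and HIF subunits) in the 4 treatments against the vector of their arm (columns), with an asterisk where the adjusted p was under 0.05. Red is higher and blue is lower; the shTA column has 1 asterisk and the TAp63γ column has 27.

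SLC2A1, the widely expressed glucose transporter GLUT1, fell with shDBD and rose with both isoforms. Its level was 8.77 and 8.73 with the shRNA vector, 8.14 and 8.15 with shDBD, and 8.75 and 8.81 with shTA. In the overexpression arm it was 8.49, 8.33 and 8.42 with the vector, 9.21 on each of the 3 ΔNp63α arrays, and 10.41, 10.59 and 10.52 with TAp63γ. Every shDBD array was thus below every vector array, shTA overlapped the vector, and the TAp63γ arrays stood above the ΔNp63α arrays. The change was −0.60 ± 0.088 with shDBD (adjusted p = 1.13e-04 by limma), 0.03 ± 0.088 with shTA (0.937), 0.79 ± 0.071 with ΔNp63α (5.91e-07) and 2.09 ± 0.071, or 4.26-fold, with TAp63γ (3.31e-12). The 3 ΔNp63α values were identical within 1e-06, as were those of 128 of 22277 probe sets (0.575%) in that group, so these 3 arrays show no spread for SLC2A1. SLC2A3, the high-affinity transporter GLUT3, passed in none of these comparisons, with changes between −0.20 and 0.09.

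The first steps of glycolysis, which trap and commit glucose, moved in differing directions. HK2, the inducible hexokinase, had levels of 8.0 on both shRNA vector arrays, 8.23 and 8.36 with shDBD, and 7.96 and 8.0 with shTA. In the overexpression arm HK2 was at 9.24, 9.21 and 9.26 with the vector, 8.70, 8.72 and 8.72 with ΔNp63α, and 8.90, 9.11 and 8.95 with TAp63γ. Its arrays did not overlap with the vector in any of the 4 comparisons, although shTA replicate 2 was below the vector by less than the 2 decimals given show. With shTA the change of HK2 was −0.02 ± 0.09 and did not pass (limma adjusted p = 0.967). With shDBD and both isoforms its direction was opposite to that of SLC2A1. HK2 rose with shDBD (0.29 ± 0.09, adjusted p = 0.0286) and fell with ΔNp63α (−0.52 ± 0.073, 5.66e-05) and TAp63γ (−0.25 ± 0.073, 0.0112). The rise with shDBD no longer passed when shRNA vector replicate 1 (adjusted p = 0.124), shRNA vector replicate 2 (0.116) or shDBD replicate 2 (0.215) was left out. Another probe set of HK2 was at −0.24 in that comparison and did not pass, so the probe sets disagree in sign. HK1, the constitutive hexokinase, did not pass with shDBD (−0.32 ± 0.14, adjusted p = 0.134), and its changes in the other treatments lay between −0.20 and 0.00.

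PFKP, the platelet-type subunit of phosphofructokinase, which catalyses the committed step, separated the isoforms. Its level was 12.01 and 12.16 with the shRNA vector, 11.23 and 11.11 with shDBD, and 11.83 and 11.77 with shTA. It was 11.24, 11.75 and 11.41 with the overexpression vector, 11.08, 11.00 and 10.53 with ΔNp63α, and 12.25, 11.76 and 12.01 with TAp63γ. All ΔNp63α arrays were thus below the vector arrays and all TAp63γ arrays above them, by little for one of each. PFKP fell with shDBD (−0.92 ± 0.19, adjusted p = 0.00186) and with ΔNp63α (−0.59 ± 0.15, 0.00731) and rose with TAp63γ (0.54 ± 0.15, 0.00792). The direct difference of ΔNp63α from TAp63γ was −1.14 ± 0.15 (2.28e-05). The liver and muscle subunits, PFKL and PFKM, passed in none of the treatments; PFKM was at 0.36 ± 0.16 with shDBD (adjusted p = 0.127). GPI, which isomerizes glucose 6-phosphate, rose with TAp63γ (0.46 ± 0.14, adjusted p = 0.0161) and was at −0.33 ± 0.14 with ΔNp63α (0.102). The rise of GPI was lost without overexpression vector replicate 1 (0.0824) or 3 (0.0552) or TAp63γ replicate 1 (0.0827).

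Enzymes of the middle of the pathway, GAPDH excepted, rose with TAp63γ. ALDOA and ALDOC, the aldolases that split fructose bisphosphate, rose by 0.59 ± 0.087 and 1.33 ± 0.14 with TAp63γ. The triose phosphate isomerase TPI1 rose by 0.58 ± 0.076. PGK1, the first enzyme of the pathway that makes ATP, rose by 0.70 ± 0.056, and the phosphoglycerate mutase PGAM1 by 0.79 ± 0.053. All 5 adjusted p-values lay between 9.43e-09 (PGAM1) and 4.24e-05 (ALDOA). With ΔNp63α the changes of these genes were smaller: ALDOC rose by 0.77 ± 0.14 (adjusted p = 5.5e-04), PGAM1 by 0.37 ± 0.053 (7.41e-05) and PGK1 by 0.19 ± 0.056 (0.0208), while ALDOA was at 0.14 ± 0.087 and TPI1 at 0.11 ± 0.076. The rise of PGK1 with ΔNp63α was lost without overexpression vector replicate 1 (adjusted p = 0.0972) or 3 (0.0789) or ΔNp63α replicate 1 (0.0623) or 2 (0.0671). Tested directly, all 5 were lower with ΔNp63α than with TAp63γ, by −0.56 ± 0.14 for ALDOC, −0.51 ± 0.056 for PGK1, −0.47 ± 0.076 for TPI1, −0.45 ± 0.087 for ALDOA and −0.42 ± 0.053 for PGAM1. With the most variable probe set of each gene, the differences of PGK1 (adjusted p = 0.134) and TPI1 (0.0793) did not pass.

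PGAM1 shows the order of the groups on single arrays. Its level was 12.21, 12.24 and 12.17 with the overexpression vector, 12.58, 12.63 and 12.51 with ΔNp63α, and 12.93, 12.97 and 13.07 with TAp63γ, with no overlap between the 3 groups. In the knockdown arm PGAM1 stayed between 13.03 and 13.17 on all 6 arrays. Of these 5 genes only TPI1 passed with shDBD. Its level was 13.21 and 13.22 with the shRNA vector, 12.27 and 12.52 with shDBD and 13.19 on both shTA arrays, a fall of 0.82 ± 0.093 with shDBD (adjusted p = 1.05e-05). With its most variable probe set TPI1 was at −0.32 and did not pass (0.287). ALDOC was at 0.24 ± 0.17, ALDOA at −0.17 ± 0.11, and PGK1 and PGAM1 were each at 0.08 with shDBD.

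GAPDH, which oxidizes glyceraldehyde 3-phosphate and is often taken as a reference transcript, lay between 14.20 and 14.54 on the 15 arrays and passed in none of the comparisons with a vector. Its changes lay between −0.04 and 0.03, with standard errors of 0.035 to 0.043. The highest value of any probe set on an array was 14.54 to 14.74, so GAPDH was measured near the top of the range. The array's own 3 GAPDH control probe sets lay between 13.95 and 14.36.

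**Figure D2:**
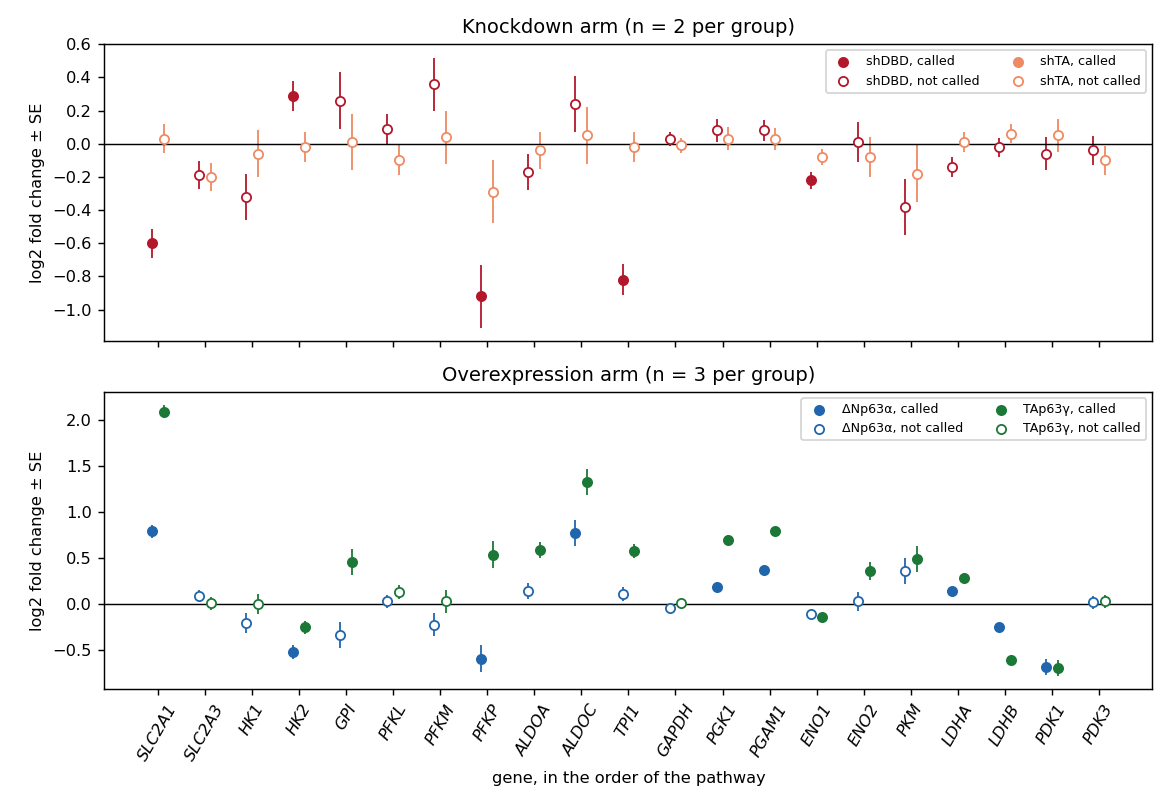
Log2 change ± SE of the transporters, the enzymes and the kinases PDK1 and PDK3 in the order of the pathway, in the knockdown arm (top, shDBD and shTA against the shRNA vector, n = 2 arrays per group) and the overexpression arm (bottom, ΔNp63α and TAp63γ against the vector, n = 3). Filled points passed the test; TAp63γ lies above ΔNp63α from ALDOA to PGAM1 and below it at LDHB.

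The end of the pathway was mixed. ENO1, the main enolase, fell with shDBD (−0.22 ± 0.051, adjusted p = 0.00488) and with TAp63γ (−0.14 ± 0.042, 0.0149), and was at −0.11 ± 0.042 with ΔNp63α (0.0533). The fall of ENO1 with TAp63γ was lost without overexpression vector replicate 3 (0.0607), and both its falls were lost with the mean of its probe sets. ENO2, the neuronal enolase, was above the 20th percentile on 3 of 15 arrays, and its rise with TAp63γ (0.36 ± 0.1, adjusted p = 0.00749) was lost with values floored there. PKM, pyruvate kinase of the muscle type, was at 0.49 ± 0.14 with TAp63γ (0.00985), with levels of 13.00, 12.34 and 12.45 against 11.88, 12.38 and 12.05 with the vector. These arrays overlapped, and without TAp63γ replicate 1 the change was 0.29 (adjusted p = 0.0519), or 0.38 (0.054) without overexpression vector replicate 1. With ΔNp63α, PKM was at 0.36 ± 0.14 (0.0735), and with shDBD at −0.38 ± 0.17 (0.146).

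The subunits of lactate dehydrogenase moved apart. LDHA, the subunit that favours lactate production, was at 13.53, 13.56 and 13.52 with the overexpression vector, 13.67, 13.74 and 13.62 with ΔNp63α, and 13.79, 13.82 and 13.85 with TAp63γ. LDHB, which favours the oxidation of lactate, was at 13.61, 13.64 and 13.60 with the vector, 13.35, 13.38 and 13.38 with ΔNp63α, and 13.02, 13.01 and 13.02 with TAp63γ. In neither gene did the 3 groups overlap, and their order was opposite. LDHB fell by 0.25 ± 0.047 with ΔNp63α (adjusted p = 8.4e-04) and by 0.60 ± 0.047 with TAp63γ (4.22e-08), and LDHA rose by 0.29 ± 0.05 with TAp63γ (1.93e-04). The rise of LDHA with ΔNp63α, 0.14 ± 0.05 (adjusted p = 0.0429), was lost under 16 of 26 alternative settings of the analysis. Without ΔNp63α replicate 2 its adjusted p was 0.167 and without overexpression vector replicate 3 it was 0.117. Neither gene passed in the knockdown arm, where LDHA was at −0.14 ± 0.061 and LDHB at −0.02 ± 0.057 with shDBD.

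Of the 4 kinases beside the pathway, PFKFB3 followed SLC2A1. It makes fructose 2,6-bisphosphate, the activator of phosphofructokinase. Its level was 7.71 and 7.82 with the shRNA vector, 7.13 and 7.0 with shDBD and 7.78 on both shTA arrays, and 7.45, 7.24 and 7.29, then 7.53, 7.53 and 7.82, then 8.15, 8.46 and 8.28 with the overexpression vector, ΔNp63α and TAp63γ. The shDBD arrays lay below the vector and the arrays of both isoforms above it. PFKFB3 fell by 0.70 ± 0.12 with shDBD (adjusted p = 6e-04) and rose by 0.97 ± 0.1 with TAp63γ (9.9e-07) and by 0.30 ± 0.1 with ΔNp63α (0.0348). The rise with ΔNp63α was lost without overexpression vector replicate 2 (0.12) or 3 (0.0986) or ΔNp63α replicate 3 (0.151). PFKFB4, a testis-type isoenzyme also induced by hypoxia, rose with TAp63γ (0.27 ± 0.077, adjusted p = 0.00905, and 0.0514 without overexpression vector replicate 2) and was at 0.21 ± 0.077 with ΔNp63α (0.0511).

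PDK1, the kinase that shuts off pyruvate dehydrogenase and so limits the oxidation of pyruvate, fell with both isoforms. Its level was 7.84, 8.0 and 7.74 with the overexpression vector, 7.20, 7.27 and 7.05 with ΔNp63α, and 7.13, 7.28 and 7.11 with TAp63γ. Both isoforms lay below the vector without overlap and overlapped each other. PDK1 fell by 0.68 ± 0.084 with ΔNp63α (adjusted p = 1.54e-05) and by 0.69 ± 0.084 with TAp63γ (6.34e-06), and was at −0.06 ± 0.1 with shDBD and 0.05 ± 0.1 with shTA. PDK3, another kinase of this complex, passed in none of the 4 comparisons, with changes between −0.10 and 0.03.

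The largest changes with shDBD, ΔNp63α and TAp63γ among the 34 members were in the other hypoxia genes. CA12, a carbonic anhydrase of the cell surface that exports acid equivalents, had levels of 9.80 and 9.71 with the shRNA vector, 8.35 and 8.02 with shDBD, and 10.16 and 10.18 with shTA. In the overexpression arm CA12 was at 8.83, 9.2 and 8.93 with the vector, 10.76, 10.57 and 10.39 with ΔNp63α, and 11.43, 11.02 and 11.18 with TAp63γ. None of the treated groups overlapped its vector. CA12 fell by 1.57 ± 0.16 with shDBD (2.97-fold, adjusted p = 2.77e-06) and rose by 1.59 ± 0.13 with ΔNp63α (3.01-fold, 1.65e-07) and 2.23 ± 0.13 with TAp63γ (4.68-fold, 1.38e-09). With shTA it was at 0.41 ± 0.16 and did not pass (0.229). Another CA12 probe set of the same mean level, 9.9, passed with shTA (0.53 ± 0.095, limma adjusted p = 0.00821 over all probe sets with 1 symbol). The remaining CA12 probe sets were at 0.04 to 0.51 with shTA and did not pass. With the arms fitted separately or with array weights, the probe set used for CA12 passed as higher with shTA.

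NDRG1, a stress-responsive gene named for its regulation by N-myc, had levels of 10.56 and 10.57 with the shRNA vector and 9.87 and 9.76 with shDBD. It was at 10.15, 10.51 and 10.21 with the overexpression vector, 11.61, 11.58 and 11.20 with ΔNp63α, and 12.81, 12.40 and 12.54 with TAp63γ. It fell by 0.75 ± 0.16 with shDBD (adjusted p = 0.00245) and rose by 1.17 ± 0.13 with ΔNp63α (4.51e-06) and 2.29 ± 0.13, or 4.9-fold, with TAp63γ (1.06e-09). BHLHE40, a transcriptional repressor linked to the circadian clock, had a like pattern. Its level was 10.21 and 10.49 with the shRNA vector and 9.40 and 9.56 with shDBD, and 9.03, 9.33 and 9.03, then 10.72, 10.57 and 10.15, then 11.50, 11.21 and 11.34 with the overexpression vector, ΔNp63α and TAp63γ. BHLHE40 fell by 0.87 ± 0.17 with shDBD (0.00142) and rose by 1.35 ± 0.14 (2.18e-06) and 2.22 ± 0.14 (3.44e-09) with the isoforms. With shTA, NDRG1 was at 0.16 ± 0.16 and BHLHE40 at −0.17 ± 0.17.

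ANGPTL4, a secreted inhibitor of lipoprotein lipase, was the single member that passed with shTA by the probe set used for each gene. Its level was 10.64 and 10.83 with the shRNA vector, 9.67 and 9.75 with shDBD and 9.75 on both shTA arrays. In the overexpression arm ANGPTL4 was at 8.95, 8.92 and 8.68 with the vector, 10.87, 10.79 and 10.66 with ΔNp63α, and 11.17, 11.04 and 11.11 with TAp63γ. Both hairpins lay about 1 unit below the vector, and both isoforms about 2 units above theirs. The change was −1.03 ± 0.11 with shDBD (adjusted p = 4.28e-06), −0.98 ± 0.11 with shTA (9.07e-05), 1.92 ± 0.087 with ΔNp63α (2.04e-10) and 2.26 ± 0.087 with TAp63γ (1.27e-11). The hairpins share their vector arrays, and their direct difference was −0.04 ± 0.11.

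**Figure D3:**
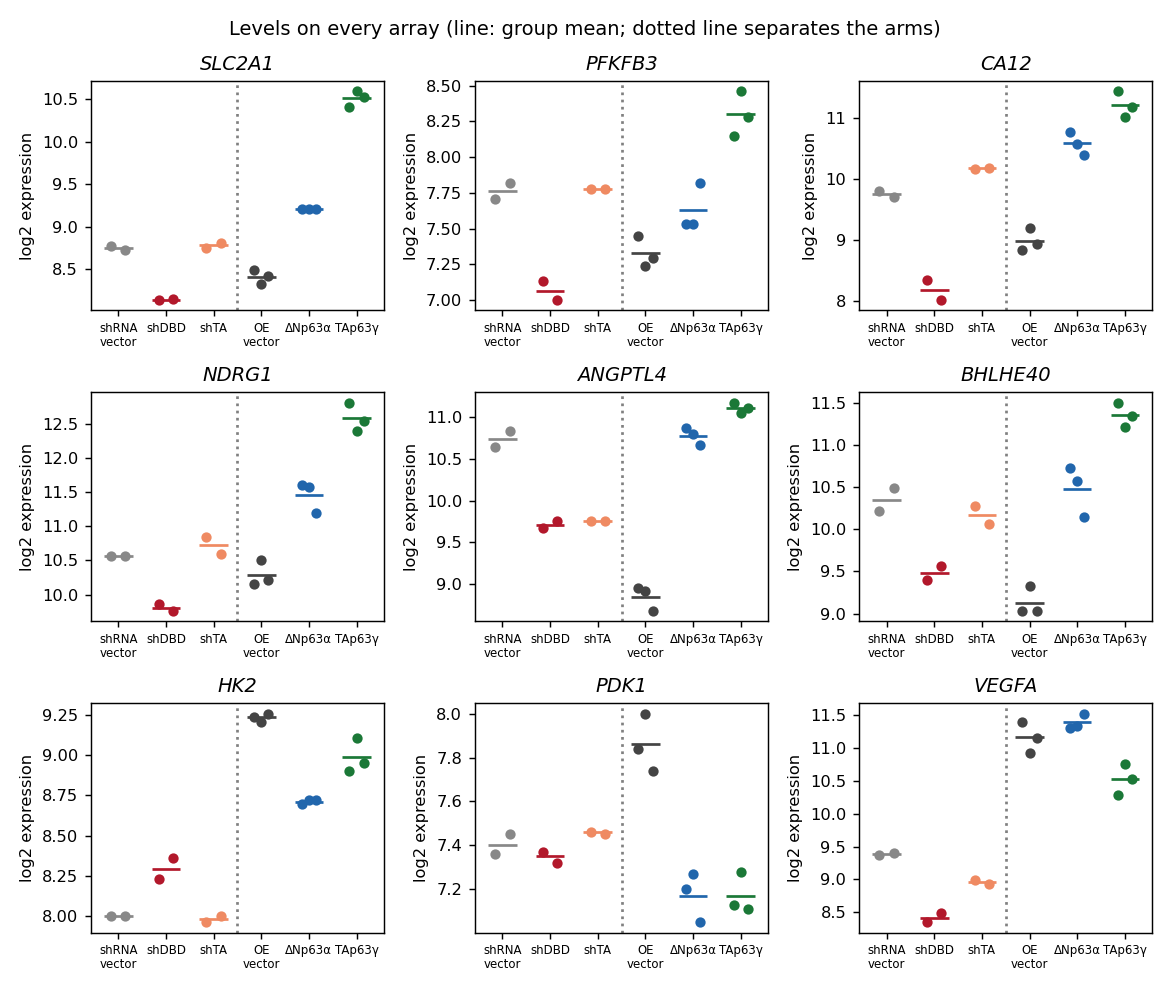
Log2 level on each of the 15 arrays for SLC2A1, PFKFB3, CA12, NDRG1, ANGPTL4, BHLHE40, HK2, PDK1 and VEGFA, with the group mean as a line; a dotted line separates the arms, whose values were treated as normalized separately. The first 6 genes are lower with shDBD and higher with both isoforms than with the vector of the arm, HK2 is the reverse, PDK1 is lower with both isoforms, and VEGFA is lower with shDBD and TAp63γ.

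VEGFA, the main vascular growth factor induced by hypoxia, did not follow these genes. Its level was 9.37 and 9.40 with the shRNA vector, 8.35 and 8.49 with shDBD, and 8.99 and 8.93 with shTA. It was 11.39, 10.92 and 11.15 with the overexpression vector, 11.30, 11.34 and 11.52 with ΔNp63α, and 10.28, 10.75 and 10.53 with TAp63γ. VEGFA fell with shDBD (−0.97 ± 0.15, adjusted p = 2.16e-04) and with TAp63γ (−0.64 ± 0.12, 4.85e-04), and did not pass with ΔNp63α (0.23 ± 0.12, 0.192) or shTA (−0.43 ± 0.15, 0.19). Tested directly, VEGFA was higher with ΔNp63α than with TAp63γ by 0.87 ± 0.12 (4.17e-05).

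ADM, the vasodilator peptide adrenomedullin, rose with shDBD as well as with both isoforms. Its level was 8.10 and 8.11 with the shRNA vector, 8.53 and 8.68 with shDBD, and 7.69 and 8.02 with shTA. It was 7.98, 7.99 and 7.86 with the overexpression vector, 9.28, 9.29 and 9.42 with ΔNp63α, and 9.52, 9.75 and 9.67 with TAp63γ. The rise of ADM was 0.50 ± 0.12 with shDBD (adjusted p = 0.00513, and 0.0639 without shDBD replicate 2), 1.39 ± 0.094 with ΔNp63α (2.52e-08) and 1.70 ± 0.094 with TAp63γ (9.72e-10).

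The collagen prolyl hydroxylase subunits P4HA1 and P4HA2, which modify procollagen, differed from each other. P4HA1 was at 8.65 and 8.68 with the shRNA vector, 9.73 and 9.97 with shDBD, and 8.59 and 8.51 with shTA, a rise of 1.18 ± 0.1 with shDBD (2.27-fold, adjusted p = 6.32e-07). With TAp63γ it rose by 0.36 ± 0.083 (0.00224) and with ΔNp63α it was at 0.12 ± 0.083. P4HA2 stayed between 10.42 and 10.56 in the knockdown arm, and was at 9.77, 10.07 and 9.87 with the overexpression vector, 10.63, 10.61 and 10.05 with ΔNp63α, and 11.44, 11.33 and 11.44 with TAp63γ. P4HA2 rose by 1.5 ± 0.13 with TAp63γ (1.08e-07) and by 0.52 ± 0.13 with ΔNp63α (0.0051), where 1 array overlapped the vector. EGLN3, the prolyl hydroxylase that is itself induced by HIF, lay below the 20th percentile on all 15 arrays. Its 0.34 ± 0.058 with TAp63γ (adjusted p = 1.83e-04) was therefore measured where no level above background was shown, and the call was lost with values floored at that percentile.

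Of the HIF α subunits, by the probe set used for each, HIF1A passed with 1 treatment and EPAS1 with none. HIF1A was at 13.07, 12.64 and 12.92 with the overexpression vector and 12.34, 12.63 and 12.51 with TAp63γ, a fall of 0.38 ± 0.12 (adjusted p = 0.0137) that was lost without overexpression vector replicate 1 (0.0753) or TAp63γ replicate 1 (0.0711). It did not pass with ΔNp63α (0.17 ± 0.12), shDBD (−0.27 ± 0.14) or shTA (0.21 ± 0.14). EPAS1, the α subunit HIF-2α, passed in none of the 4 comparisons by its brightest probe set. Its changes were −0.27 ± 0.14 with shDBD, 0.11 ± 0.14 with shTA, 0.26 ± 0.12 with ΔNp63α and 0.27 ± 0.12 with TAp63γ. A dimmer probe set of EPAS1 passed with shDBD (−0.76 ± 0.2, limma adjusted p = 0.0149) and TAp63γ (0.46 ± 0.16, 0.0354), adjusted over all probe sets with 1 symbol. With shTA and ΔNp63α that probe set did not pass. With the mean of its probe sets, EPAS1 passed with shDBD, ΔNp63α and TAp63γ.

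Of the 19 transporters and enzymes, 4 fell and 1 rose with shDBD, with a median change of −0.02. Of the 9 other hypoxia genes, 5 fell and 2 rose, with a median of −0.75, where 10.2% of all genes fell and 11.1% rose. With shTA the medians were −0.02 and −0.11. With ΔNp63α, 5 of the 19 rose and 3 fell (median 0.03), and 6 of the 9 rose and 0 fell (median 1.17), where 12.3% of all genes rose and 16.6% fell. With TAp63γ, 11 of the 19 rose and 3 fell (median 0.36), and 8 of the 9 rose and 1 fell (median 1.70), where 20.5% of all genes rose and 22.8% fell. The falls among the transporters and enzymes with either isoform were thus no more frequent than among all genes. The median of the transporters and enzymes minus that of the other hypoxia genes was 0.73 with shDBD (SD over the treated arrays 0.093, n = 2), 0.0936 with shTA (0.0047, n = 2), −1.14 with ΔNp63α (0.21, n = 3) and −1.34 with TAp63γ (0.19, n = 3). Each SD was taken about the fixed mean of the vector arrays, so it leaves out their spread and is too small as an error of the difference. Members are not replicates, so the medians were not tested. The 9 genes were listed with earlier results of these data known. The 35 further hypoxia genes described below had medians of 0.02 with shDBD, 0.08 with ΔNp63α and 0.07 with TAp63γ. With shDBD, 11 of those 35 rose and 5 fell. The contrast is thus one of the 9 listed genes and not of hypoxia genes as a class.

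On single arrays, set against the mean of the vector arrays, the median of the other hypoxia genes was −0.70 and −0.78 with shDBD, 1.32, 1.29 and 0.91 with ΔNp63α, and 1.57, 1.80 and 1.73 with TAp63γ. That of the transporters and enzymes was −0.04 and 0.00 with shDBD, 0.07, 0.03 and 0.03 with ΔNp63α, and 0.42, 0.26 and 0.35 with TAp63γ. The lists were thus apart on every array of these 3 groups. They also differed in level. ALDOA, TPI1, GAPDH, PGK1, PGAM1, ENO1, PKM, LDHA and LDHB lay at mean percentiles of 97.7 to 100 among the genes of an array, near the top. No other hypoxia gene lay above 93.7 (NDRG1, overexpression arm). Some enzymes were lower, such as HK2 at 58.3 in the knockdown arm and 72.9 in the overexpression arm. The part of level in this contrast was not tested. On the shTA arrays the medians were −0.07 and −0.09 for the other hypoxia genes and −0.01 and −0.02 for the transporters and enzymes, and the vector arrays lay between −0.07 and 0.07 for both lists. The median over all genes was between −0.03 and 0.01 on each array.

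**Figure D4:**
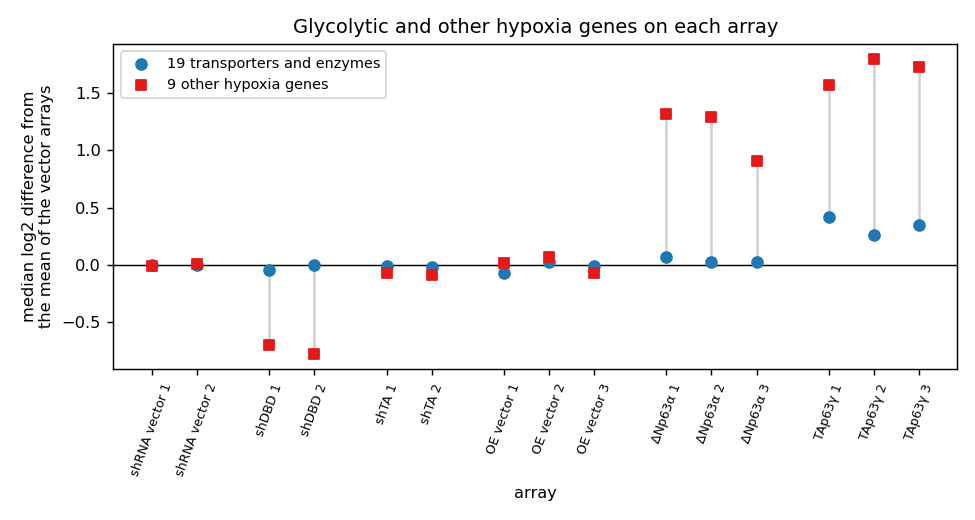
Median log2 difference from the mean of the vector arrays of the arm, for the 19 transporters and enzymes (circles) and the 9 other hypoxia genes (squares), on each of the 15 arrays. The squares are below the circles on both shDBD arrays and above them on the 6 arrays with ΔNp63α or TAp63γ.

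The hairpins were also compared directly. Of the 34 members, 9 were lower and 3 higher with shDBD than with shTA (median −0.06), against 9.23% and 9.14% of all genes. CA12 differed by −1.98 ± 0.16 (adjusted p = 3.67e-07), NDRG1 by −0.91 ± 0.16 (6.32e-04), TPI1 by −0.79 ± 0.093 (1.93e-05), PFKFB3 by −0.72 ± 0.12 (5.94e-04) and SLC2A1 by −0.64 ± 0.088 (8.75e-05). P4HA1 was higher with shDBD by 1.29 ± 0.1 (3.67e-07) and ADM by 0.75 ± 0.12 (2.4e-04). The count of 12 calls was 7 without shTA replicate 1, the differences of PFKP (0.138), VEGFA (0.115), BHLHE40 (0.099), HIF1A (0.0793) and HK2 (0.126) no longer passing. The same 5 genes each lost the call without at least 1 other array of these groups: without shDBD replicate 1 the adjusted p was 0.0822 for PFKP, 0.152 for VEGFA, 0.0902 for BHLHE40 and 0.208 for HIF1A, and without shDBD replicate 2 it was 0.187 for HK2, 0.149 for PFKP and 0.0599 for HIF1A. Without shTA replicate 2 it was 0.0792 for HK2, 0.0926 for PFKP, 0.0733 for VEGFA and 0.167 for HIF1A.

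Between the isoforms, 20 of the 34 members were lower and 3 higher with ΔNp63α than with TAp63γ (median −0.29), against 20.6% and 19.2% of all genes and a median of 0.02. The differences were −1.30 ± 0.071 for SLC2A1 (adjusted p = 1.98e-09), −1.12 ± 0.13 for NDRG1 (5.26e-06), −0.97 ± 0.13 for P4HA2 (1.89e-05), −0.87 ± 0.14 for BHLHE40 (1.13e-04), −0.79 ± 0.14 for GPI (3.77e-04), −0.67 ± 0.1 for PFKFB3 (6.88e-05) and −0.63 ± 0.13 for CA12 (8.64e-04). ANGPTL4 and ADM, which rose strongly with both, differed by −0.33 ± 0.087 (0.00616) and −0.31 ± 0.094 (0.0149). The genes higher with ΔNp63α were VEGFA, HIF1A (0.55 ± 0.12, 0.00133) and LDHB (0.36 ± 0.047, 2.03e-05). PDK1 differed by 0.00, with a 95% interval of −0.18 to 0.18. The difference of ADM was lost without TAp63γ replicate 2 (0.0631). That of P4HA1 was lost without ΔNp63α replicate 2 (0.0682) or 3 (0.0755) or TAp63γ replicate 2 (0.0992) or 3 (0.114). The difference of LDHA was lost without ΔNp63α replicate 1 (0.0677) or 3 (0.107) or TAp63γ replicate 2 (0.0604) or 3 (0.109). That of ENO2 went from −0.33 to −0.20 without ΔNp63α replicate 2 (0.0805), and was also lost without TAp63γ replicate 1 (0.0535) or 3 (0.0563).

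The arms share no arrays, so calls in both were counted together. The fit pools the variance of each gene over both arms, so these calls are not independent. Lower with shDBD and higher with ΔNp63α were 6 of the 34 members, SLC2A1, PFKFB3, CA12, ANGPTL4, NDRG1 and BHLHE40, against 391 of all genes (3.27%). Lower with shDBD and higher with TAp63γ were 8 members, these 6 with PFKP and TPI1, against 379 genes (3.17%). The reverse pattern, higher with shDBD and lower with the isoform, was seen in 1 member, HK2, for both ΔNp63α (2.76% of all genes) and TAp63γ (2.53%). P4HA1 and ADM rose with shDBD and also with TAp63γ, and VEGFA and ENO1 fell with both. With shDBD and also with ΔNp63α, ADM rose and PFKP fell. The share of all genes that moved in the same direction in both arms was not counted, so these members are named without it.

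Further genes of these pathways were counted over whole lists, and those named below are called genes with the largest changes in each. Of 20 other genes of glycolysis and pyruvate entry, 5 rose and 0 fell with shDBD, where 11.1% of all genes rose and 10.2% fell. PDK4, a kinase of pyruvate dehydrogenase, rose from 5.52 and 5.98 to 6.91 and 7.07 (1.24 ± 0.13, adjusted p = 3.36e-06), and TIGAR, a fructose bisphosphatase and p53 target, from 9.56 and 9.70 to 10.26 and 10.32 (0.66 ± 0.13, 0.00212). With ΔNp63α 0 rose and 3 fell (12.3% and 16.6% of all genes), and with TAp63γ 2 rose and 2 fell (20.5% and 22.8%), so none of these shares was above that of all genes. SLC16A4, a monocarboxylate transporter, fell from 9.73, 9.36 and 9.27 to 8.02, 8.10 and 8.39 with ΔNp63α (−1.28 ± 0.12, 1.08e-06) and to 7.93, 8.20 and 8.02 with TAp63γ (−1.40 ± 0.12, 1.54e-07). SLC16A4 rose by 0.49 ± 0.15 with shDBD (0.0295), a call lost without any 1 of the 4 arrays compared (0.0532 to 0.212). BPGM, which makes 2,3-bisphosphoglycerate, rose by 1.23 ± 0.11 with TAp63γ (2.26e-07). With shTA, 0 of the 20 genes passed.

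Of 11 genes of the pentose phosphate and glycogen pathways, 2 rose and 3 fell with shDBD (11.1% and 10.2% of all genes), 2 rose and 5 fell with ΔNp63α (12.3% and 16.6%), and 4 rose and 5 fell with TAp63γ (20.5% and 22.8%). With shTA 0 passed. The glycogen phosphorylase of liver, PYGL, rose with ΔNp63α (0.39 ± 0.08, adjusted p = 0.00175) and TAp63γ (0.55 ± 0.08, 3.89e-05), and that of brain, PYGB, fell with shDBD (−0.61 ± 0.14, 0.00417) and TAp63γ (−0.77 ± 0.11, 3.38e-05). GBE1, the glycogen branching enzyme, rose with shDBD (0.56 ± 0.13, 0.00451) and fell with ΔNp63α (−0.56 ± 0.1, 6.05e-04). With TAp63γ, GBE1 was not lower: its level was 10.57, 10.85 and 10.65, against 10.41, 10.04 and 10.28 with the vector. GYS1, glycogen synthase of muscle, rose with TAp63γ (1.02 ± 0.16, 8.35e-05) and with shDBD (0.75 ± 0.2, 0.0129), the latter call being lost without shRNA vector replicate 1 (0.0802) or 2 (0.0626) or shDBD replicate 1 (0.111).

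Of 7 genes of the HIF machinery, 1 rose and 0 fell with shDBD (11.1% and 10.2% of all genes), and 0 passed with shTA. With ΔNp63α 0 rose and 2 fell (12.3% and 16.6%), and with TAp63γ 4 rose and 0 fell (20.5% and 22.8%). CITED2, which competes with HIF for the coactivators p300 and CBP, changed most. Its level was 7.25 and 7.30 with the shRNA vector, 9.38 and 9.66 with shDBD, and 7.87 and 7.71 with shTA. It was 7.82, 7.90 and 7.77 with the overexpression vector, 7.18, 7.20 and 7.62 with ΔNp63α, and 8.41, 8.51 and 8.54 with TAp63γ. CITED2 rose 4.74-fold with shDBD (2.25 ± 0.14, adjusted p = 2.1e-08), fell with ΔNp63α (−0.50 ± 0.11, 0.00289) and rose with TAp63γ (0.66 ± 0.11, 1.52e-04). With its most variable probe set the change with ΔNp63α was −0.29 and did not pass (0.0547). HIF1AN, the asparaginyl hydroxylase that inhibits HIF, rose with TAp63γ (0.58 ± 0.087, 4.83e-05). EGLN1, the main HIF prolyl hydroxylase, was at −0.37 ± 0.12 with ΔNp63α (0.0344), a call lost under 8 of 26 alternative settings, among them without ΔNp63α replicate 2 (0.171).

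Of 35 further hypoxia genes, 11 rose and 5 fell with shDBD (median 0.02), where 11.1% of all genes rose and 10.2% fell. With shTA 5 rose and 2 fell (median 0.09), where the shares were 1.44% and 0.853%. With ΔNp63α 8 rose and 7 fell (median 0.08), where they were 12.3% and 16.6%, and with TAp63γ 15 rose and 8 fell (median 0.07), where they were 20.5% and 22.8%. The list held changes of over 2-fold in both directions with shDBD and TAp63γ. STC2, the secreted glycoprotein stanniocalcin 2, was at 8.77 and 8.70 with the shRNA vector, 7.27 and 7.16 with shDBD, and 8.07 and 7.98 with shTA. STC2 was at 10.85, 10.97 and 10.95 with the overexpression vector, 9.80, 9.73 and 9.67 with ΔNp63α, and 8.05, 8.17 and 7.90 with TAp63γ. All 4 treatments lay below their vector: −1.52 ± 0.1 with shDBD (adjusted p = 5.07e-08), −0.71 ± 0.1 with shTA (8.51e-04), −1.19 ± 0.081 with ΔNp63α (2.66e-08) and −2.88 ± 0.081, or 7.36-fold, with TAp63γ (5.01e-13).

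Other genes of that list rose with shDBD. BNIP3L, a mitophagy receptor, rose by 1.22 ± 0.16 (adjusted p = 5.86e-05). It was also higher with TAp63γ, at 9.64, 9.41 and 9.88 against 8.51, 8.88 and 8.52 with the overexpression vector. LOX, which cross-links collagen, rose with shDBD from 5.45 and 5.33 to 6.49 and 7.03 (1.38 ± 0.2, 9.85e-05). The vector levels of LOX were near the 20th percentile, and its rise with shTA (1.12 ± 0.2, 0.00591) was lost without shRNA vector replicate 2 (0.0812) or either shTA array (0.0557 and 0.0648). The chemokine receptor CXCR4 rose with shTA by 1.05 ± 0.12 (1.49e-04). With TAp63γ the ephrin EFNA1 rose by 1.91 ± 0.099 (4.09e-10) and the urokinase receptor PLAUR by 1.53 ± 0.098 (5.06e-09). EFNA1 was also higher with shDBD, at 10.55 and 10.79 against 9.93 and 9.83 with the shRNA vector. With ΔNp63α the repressor BHLHE41, a relative of BHLHE40, rose by 0.98 ± 0.093 (9.53e-07), and MXI1, an antagonist of MYC, fell by 0.97 ± 0.094 (1.13e-06).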

How the data were processed

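The authors deposited log2 values for each probe set, computed by RMA according to the submitters' processing notes, per the labels; further settings are not stated in the sources used. RMA equalizes the distributions of arrays, so a shift of most transcripts would not be seen. Array medians were 7.189 to 7.213 in the knockdown arm and 6.951 to 6.983 in the overexpression arm, so the arms were treated as normalized separately and levels were not compared across them. The platform annotation gave the genes of the 22277 probe sets; of those with 1 symbol, the brightest on average over the 15 arrays stood for its gene. Of 92 called member values, 39 were of members with other probe sets, and 0 of these had one called in the opposite direction. SLC2A3 shares sequence with the near-identical SLC2A14, so its value is uncertain.

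Group means over all 15 arrays were fitted with limma 3.58.1 in R 4.3.3 (9 residual and 5.87 prior degrees of freedom, variance trend, two-sided, Benjamini-Hochberg at 0.05 over 11963 genes), after a test on simulated data. An array has no read depth, and the number of arrays limits the precision. The genes named are all measured members and up to 3 called genes of each further list per comparison with a vector. Members and lists were chosen with earlier results of these data known. The labels were not checked against the altered gene's own transcript, which is not analysed here. The 26 alternatives were leaving out each of 15 arrays and 11 others: a replicate block, arms fitted separately, no variance trend, 3 other normalizations, a floor and a filter at the 20th percentile, the mean or the most variable probe set, and array weights.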

Additional observations from a re-analysis of the deposited data

How the results depend on the processing

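Of the called members, 9 of 13 with shDBD, 1 of 1 with shTA, 13 of 16 with ΔNp63α and 20 of 27 with TAp63γ kept their call under all 26 alternatives, as did 6 of 12 between the hairpins and 16 of 23 between the isoforms. With the arms fitted separately the count of members called was 20 with shDBD and 4 with shTA, and with array weights it was 3 with shTA. Leaving out 1 array gave a count of 7 to 14 between the hairpins. Same-numbered arrays of different groups deviated with correlations of 0.00137 to 0.069 in the knockdown arm. With 2 arrays per group, differently numbered arrays there hold the same values with opposite sign, so pairing cannot be judged from them. In the overexpression arm the correlations were −0.628 to 0.476 for the same number and −0.725 to 0.675 for different numbers. Deviations were taken from the group means there too, so the correlations for same and different numbers are tied to each other. They do not settle whether the arrays were paired. A replicate block gave 12 members with shDBD, 1 with shTA, 14 with ΔNp63α, 27 with TAp63γ, 11 between the hairpins and 21 between the isoforms, and 150 of all genes with shTA against 274. All genes called with shTA numbered 1064 with the arms fitted separately, 954 with array weights and 87 to 472 without 1 array. They numbered 3359 between the hairpins with the arms fitted separately and 1348 to 1463 without shDBD replicate 1 or shTA replicate 2, against 2197, and 1650 with shDBD without shRNA vector replicate 1, against 2543. The median of the transporters and enzymes minus that of the other hypoxia genes with shTA was 0.0852 after quantile normalization, 0.0749 after cyclic loess, 0.105 with the floor, 0.125 with the filter, 0.0863 with the most variable probe set and 0.0179 to 0.113 without 1 array. With the filter this median difference was −1.59 with TAp63γ, 0.303 between the hairpins and 0.211 between the isoforms, where quantile normalization and cyclic loess each gave 0.16. Between the hairpins it was −0.0126 to 0.093 without 1 array, the lowest without shDBD replicate 2, against 0.0634. With its most variable probe set, HK2 was at −0.239 with shDBD, −0.116 between the hairpins and 0.0719 between the isoforms, the sign turning each time. With the floor, EGLN3 was at −0.0222 with TAp63γ and 0.0468 between the isoforms. The cause of these shifts was not tested.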
